A study of Schizosaccharomyces pombe 972h- with 8 samples.

Results

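The septins of fission yeast were examined as a family of 7 genes, spn1 to spn7. They were found in both deposited tables as the rows that carry a member's name, and all 7 were measured on both platforms, among 4854 genes in all. The wild-type haploid strain 972h- was grown in yeast extract medium in 2 cultures, each started from a colony of its own. Cells were exposed to 0.5 mM hydrogen peroxide for 30 minutes (H2O2), and cells of the same culture taken just before the addition served as the control. No untreated cells were taken after the 30 minutes, so an effect of H2O2 and one of the added time in culture cannot be told apart. RNA of each sample was hybridized to a strand-specific tiling array (Sp_TMA) and to an expression array read from double-stranded target (Sp_EMA), which gives 2 H2O2 and 2 control arrays per platform and 8 arrays in all.

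Septins are GTP-binding proteins that polymerize into filaments and rings at membranes. In vegetative fission yeast, Spn1, Spn2, Spn3 and Spn4 form the septin ring at the division site, where the anillin-like protein Mid2 holds it in place and where it guides the enzymes that dissolve the septum between daughter cells. Spn1 and Spn4 are the core without which the ring does not form, while Spn2 and Spn3 are less strictly required. In sporulating cells, Spn5, Spn6 and Spn7 assemble together with Spn2 along the forespore membrane that encloses each new spore. The name mde that the tables give as a synonym of spn5 (mde9) and spn7 (mde8) stands for dependence on Mei4, the forkhead transcription factor of middle meiosis, which binds a DNA element called FLEX.

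The promoters of spn5 and spn7 held exact matches to a forkhead motif, and those of the other septins held none. The 300 bases upstream of each annotated transcript start were searched on both strands for the forkhead core GTAAACA, the center of the FLEX element, for TGACGT, the core of the stress response element bound by Atf1, and for TTCTTTGTT, the core of the TR box of the meiotic factor Ste11. The forkhead core was found 3 times upstream of spn5 and 1 time upstream of spn7, and not in the windows of spn1, spn2, spn3, spn4 and spn6. Of 5123 promoters of the genome, 17.04% held at least 1 match and 0.312% held 3 or more. The longer form GTAAACAAACA, the core with the bases that follow it in the spn7 window and the form of FLEX known from middle meiotic genes, was also found upstream of spn5, overlapping a core match there, and in 1.33% of all promoters. It was read from the spn7 window after the core had been seen there. Only exact matches were counted, so near forms were passed over. On the opposite strand the spn6 window holds the longer form with A in place of its first G. The share of promoters with such near forms was not counted. Among the septins the Atf1 core was found upstream of spn5 (6.01% of all promoters) and the TR box core upstream of none (2.01%). A match describes letters in a window, not binding. The windows of spn5 and spn7 are shown because these genes had the lowest changes of the family on both platforms, with each forkhead core (GTAAACA, or TGTTTAC on the opposite strand) in capitals, 5′ to 3′ on the strand of the gene, from RefSeq build ASM294v3 at chrI:3075989-3076288 (reverse strand) and chrII:3230511-3230810 (reverse strand). The annotation gives spn5 no 5′ untranslated region, so that its window ends at the start codon.
spn5: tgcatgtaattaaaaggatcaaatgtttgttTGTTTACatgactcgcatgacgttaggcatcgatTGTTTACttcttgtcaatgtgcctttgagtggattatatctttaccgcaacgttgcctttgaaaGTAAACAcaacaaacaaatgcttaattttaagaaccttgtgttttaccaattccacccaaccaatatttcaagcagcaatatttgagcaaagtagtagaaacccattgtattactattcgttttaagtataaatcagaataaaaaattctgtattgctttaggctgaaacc
spn7: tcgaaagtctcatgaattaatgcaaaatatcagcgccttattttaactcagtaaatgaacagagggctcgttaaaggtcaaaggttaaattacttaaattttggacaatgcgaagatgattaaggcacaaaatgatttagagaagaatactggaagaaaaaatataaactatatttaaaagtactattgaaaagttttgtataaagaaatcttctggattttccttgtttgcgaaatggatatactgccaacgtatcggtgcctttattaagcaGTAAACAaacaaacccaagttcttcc
Likeness in sequence bears on the probes. Between the coding sequences of the 21 pairs of septins, the longest run of identical bases measured 10 to 15 bases. The opposite strand, the untranslated parts and imperfect matches were not compared. The longest run is shared by spn1 and spn5, from base 883 of the spn1 and base 892 of the spn5 coding sequence. It is shown because it is the longest identical stretch between the coding sequences of any pair.
spn1 and spn5: ataccttttgctata

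The genes lie on all 3 chromosomes of ASM294v3. In this annotation spn1 is at chrI:4853040-4855199 and spn2 at chrI:990205-991889, both on the forward strand, spn4 at chrI:1991482-1993081 and spn5 at chrI:3074267-3075988, both on the reverse strand. On chromosome II lie spn7 at 3228620-3230510 and spn3 at 4298727-4300497, both on the reverse strand, and on chromosome III lies spn6 at 1504891-1506851, on the forward strand. Coding lengths were 1410 bases for spn1, 996 for spn2, 1122 for spn3, 1143 for spn4, 1395 for spn5, 1143 for spn6 and 1287 for spn7. The number of introns ran from 0 in spn4 to 5 in spn7, with 2 in spn1, spn3 and spn5, 4 in spn2 and 1 in spn6. Since Sp_EMA does not separate the strands, genes annotated on the opposite strand were counted. They covered 100% of the coding bases of spn2 (the non-coding RNA SPNCRNA.702), 99.3% of spn6 (the Dicer gene dcr1) and 97.4% of spn7 (SPNCRNA.1588), and 35.3% of spn4, 24.5% of spn1, 22.2% of spn3 and none of spn5. The non-coding RNAs were not analysed here. For dcr1, limma gave a change of -0.22 (log2, H2O2 minus control) on Sp_TMA with adjusted p = 0.136, and on Sp_EMA one of -0.19 with adjusted p = 0.0491. Its part in the spn6 values was not tested.

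**Figure D1:**
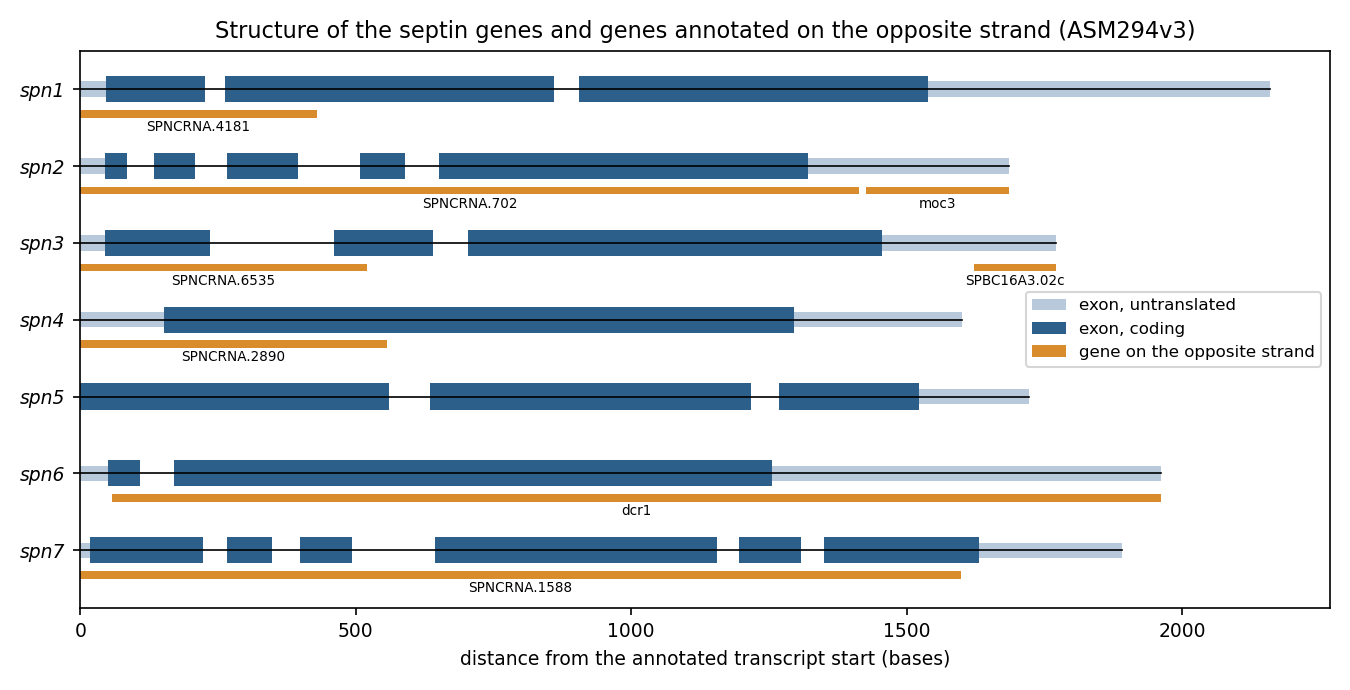
Map of the 7 septin genes to scale, with the distance from the annotated transcript start in bases on the x axis. Dark boxes are coding exons, light boxes are untranslated exon parts, thin lines are introns, and orange bars are the parts covered by genes annotated on the opposite strand, which cover 100% of the coding bases of spn2 and none of spn5.

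The vegetative and the sporulation septins gave signals in separate ranges, in treated and untreated cells alike. On Sp_TMA the values of spn1 to spn4 lay between 10.55 and 12.22 (log2) over the 4 arrays and those of spn5 to spn7 between 5.06 and 7.22, where the array medians over all genes ran from 10.29 to 10.31. On Sp_EMA the ranges were 11.02 to 12.61 for spn1 to spn4 and 5.52 to 7.97 for spn5 to spn7, around array medians from 11.10 to 11.13. Each gene is read by its own probes, so that differences in signal between genes do not measure differences in RNA amount. The lowest value of any gene was 4.02 on Sp_TMA and 5.04 on Sp_EMA. spn6 stood between 0.91 and 1.26 above the lowest value of its array on Sp_TMA and between 0.42 and 0.51 on Sp_EMA, and spn5 between 1.30 and 1.65 on Sp_TMA and between 0.78 and 1.08 on Sp_EMA. A fall of spn5 or spn6 is thus bounded by the dim end of the scale.

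**Figure D2:**
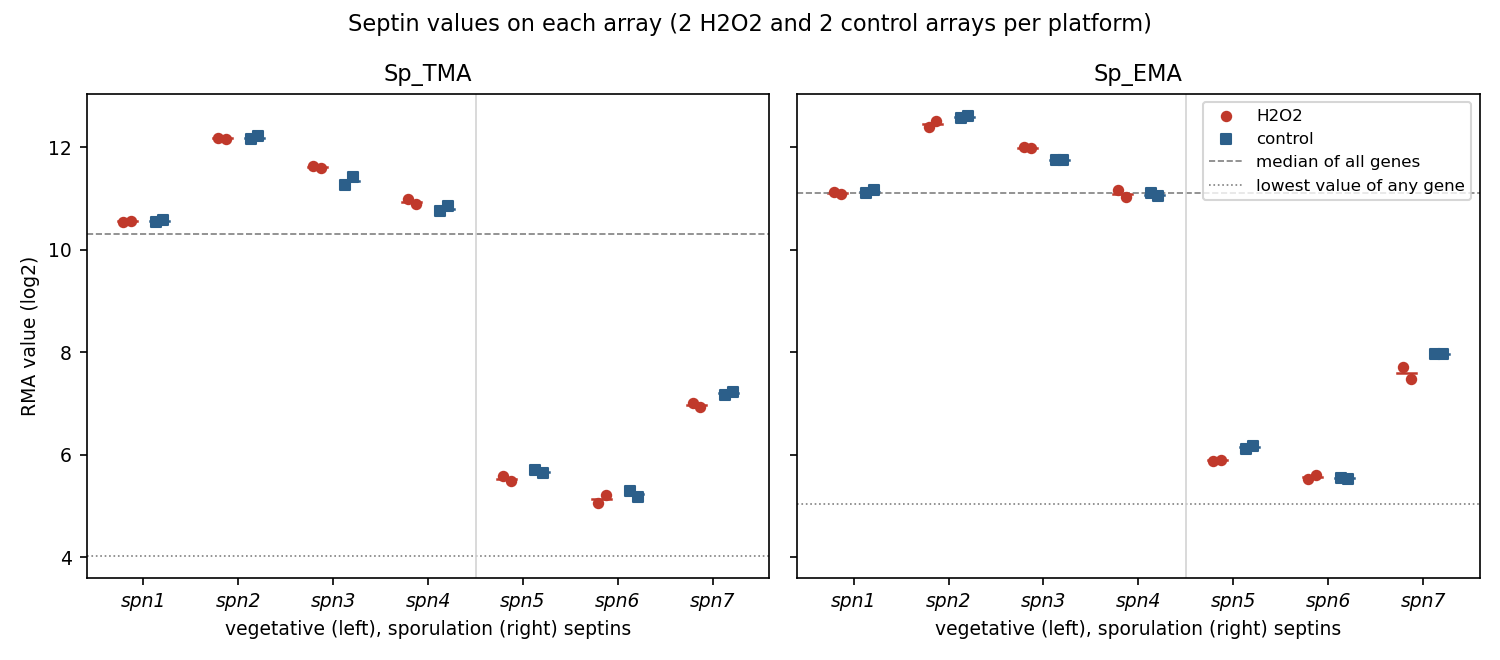
RMA values (log2, y axis) of each septin (x axis) on Sp_TMA (left) and Sp_EMA (right), with a point for each of the 2 H2O2 arrays (circles) and the 2 control arrays (squares), and a bar at each group mean. The dashed line is the mean of the array medians and the dotted line the lowest value of any gene, and spn5, spn6 and spn7 lie between these lines while spn1 to spn4 lie near or above the median.

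The changes of the septins between control and H2O2 cells were small. The family ran from -0.23 to 0.28 (log2) on Sp_TMA and from -0.37 to 0.25 on Sp_EMA, so that no septin changed by more than 1.30-fold. The test of each gene was limma on the 4 arrays of a platform, with p-values adjusted over all 4854 genes by the Benjamini-Hochberg method and a threshold of 0.05. On Sp_TMA, 1 septin rose, 1 fell and 5 missed the threshold, where 25.2% of all genes rose and 31.3% fell (56.5% together). On Sp_EMA, 1 rose, 2 fell and 4 missed it, where 22.7% of all genes rose and 36.2% fell (59.0% together). H2O2 and control arrays did not overlap for 4 septins on Sp_TMA (spn3 and spn4 higher, spn5 and spn7 lower), where 80.1% of all genes did not (35.5% higher, 44.7% lower). On Sp_EMA they did not overlap for 4 septins (spn3 higher, spn2, spn5 and spn7 lower), where 82.6% of all genes did not (31.4% higher, 51.2% lower). The median absolute change of the 7 septins was 0.13 on Sp_TMA and 0.14 on Sp_EMA, while that of all genes was 0.31 and 0.26. All 7 septins on Sp_TMA and 6 on Sp_EMA, all but spn7, changed by less in size than the median gene did. For spn5 and spn6 this comparison is limited by their dim signals, which bound a fall. RNA of whole cultures was measured, so that fewer cells of a kind and less RNA per cell cannot be told apart.

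**Figure D3:**
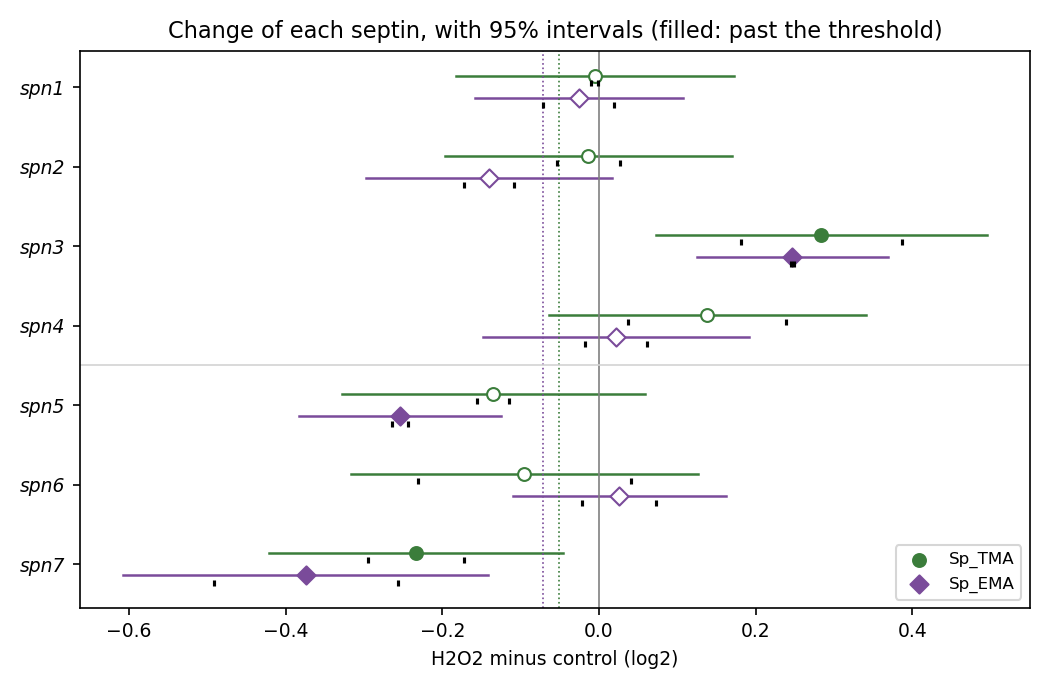
Change of each septin (H2O2 minus control, log2, x axis) on Sp_TMA (circles) and Sp_EMA (diamonds), with 95% intervals from limma as lines and the change in each of the 2 cultures as small black ticks. Filled symbols passed the threshold, dotted lines mark the median change of all genes on each platform, and spn3 lies above 0 and spn7 below 0 with their whole intervals on both platforms.

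spn3, a vegetative septin of the ring, was the 1 member that rose, and it did so on both platforms. On Sp_TMA its values were 11.64 and 11.59 in H2O2, against 11.25 and 11.41 in control cells. On Sp_EMA they were 11.99 and 11.99 in H2O2, against 11.75 and 11.74 in control cells. Both H2O2 arrays lay above both control arrays on each platform. The mean was 11.62 ± 0.03 in H2O2 and 11.33 ± 0.11 in control cells on Sp_TMA (SD, n = 2 each), so that it rose by 0.28 with a standard error of 0.09 (1.22-fold, adjusted p = 0.0319 from limma), and on Sp_EMA 11.99 ± 0.00141 in H2O2 and 11.74 ± 0.00431 in control cells (SD, n = 2 each), so that it rose by 0.25 with a standard error of 0.05 (1.19-fold, adjusted p = 0.00835). Culture 1 gave 0.39 on Sp_TMA and 0.24 on Sp_EMA, and culture 2 gave 0.18 and 0.25. The rise passed the threshold in 1 of 4 fits that left out an array on Sp_TMA (without control array 2) and in 2 of 4 on Sp_EMA (without either control array), and its size ran from 0.20 to 0.36 and from 0.24 to 0.25 in these fits. On Sp_TMA it also missed the threshold with quantile normalized gene values, where it was 0.17 (adjusted p = 0.118). The neighbour SPBC16A3.02c, an uncharacterized gene on the opposite strand whose 3′ end overlaps that of spn3 by 148 bases but none of its coding sequence, rose by 1.96 on Sp_TMA and 1.72 on Sp_EMA (adjusted p = 3.6e-05 and 1.8e-04 from limma). Its part in the spn3 values was not tested.

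The other ring septins did not pass the test on either platform. spn1, of the ring core, had 10.55 and 10.56 in H2O2 and 10.55 and 10.57 in control cells on Sp_TMA, and 11.13 and 11.08 in H2O2 and 11.11 and 11.15 in control cells on Sp_EMA. The arrays of the groups overlapped on both platforms. In limma its change was -0.01 with a 95% interval of -0.18 to 0.17 on Sp_TMA (adjusted p = 0.958), larger in size than that of 1.11% of genes, and -0.03 on Sp_EMA (-0.16 to 0.11, adjusted p = 0.699). spn4, its partner in the core, had 10.98 and 10.88 in H2O2, against 10.74 and 10.84 in control cells on Sp_TMA. Both H2O2 arrays were higher there, with a change of 0.14 (-0.06 to 0.34, adjusted p = 0.203 from limma). On Sp_EMA spn4 had 11.16 and 11.02 in H2O2 and 11.10 and 11.04 in control cells. The groups overlapped, and the change was 0.02 (-0.15 to 0.19, adjusted p = 0.801 from limma). As folds of H2O2 over control on Sp_TMA, the intervals ran from 0.881 to 1.13 for spn1 and from 0.956 to 1.27 for spn4.

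spn2, the septin that serves both in the ring and at the forespore membrane, had 12.18 and 12.16 in H2O2 and 12.15 and 12.22 in control cells on Sp_TMA. The groups overlapped there, with a change of -0.01 (-0.20 to 0.17, adjusted p = 0.893 from limma), and of -0.17 with quantile normalized gene values (adjusted p = 0.0839). On Sp_EMA it had 12.39 and 12.51 in H2O2, against 12.57 and 12.61 in control cells. Both H2O2 arrays were lower on this platform, by 0.17 in culture 1 and 0.11 in culture 2, with a change of -0.14 (-0.30 to 0.02, adjusted p = 0.105 from limma). moc3, a transcription factor gene on the opposite strand that overlaps the 3′ end of spn2 outside its coding sequence, changed by -0.82 on Sp_TMA and -0.71 on Sp_EMA (adjusted p = 4.2e-04 and 2.9e-04 from limma), and its part in the spn2 values was not tested.

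Relative to the other ring septins, spn3 was higher in both cultures on both platforms. The change of spn3 minus the mean change of spn1, spn2 and spn4 was 0.30 in culture 1 and 0.19 in culture 2 on Sp_TMA, and 0.28 and 0.31 on Sp_EMA. This score was chosen after the values were seen and has no test.

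Among the sporulation septins, spn7 fell on both platforms and spn5 on Sp_EMA. spn7 had 6.999 and 6.92 in H2O2, against 7.17 and 7.22 in control cells on Sp_TMA. On Sp_EMA it had 7.71 and 7.47 in H2O2, against 7.97 and 7.96 in control cells. Both H2O2 arrays lay below both control arrays on each platform, and the H2O2 arrays of Sp_EMA were the least alike of any septin, with a gap of 0.25 between cultures. The mean was 6.96 ± 0.06 in H2O2 and 7.19 ± 0.03 in control cells on Sp_TMA (SD, n = 2 each), which is -0.23 with a standard error of 0.08 (limma, adjusted p = 0.0414), and 7.59 ± 0.17 in H2O2 and 7.96 ± 0.01 in control cells on Sp_EMA (SD, n = 2 each), which is -0.37 with a standard error of 0.09 (adjusted p = 0.0184). Values in control cells were thus 1.18-fold and 1.30-fold those in H2O2. With the culture as a replicate block, the adjusted p was 0.0975 on Sp_TMA, past the threshold no more, and 0.0134 on Sp_EMA. On Sp_TMA the call was lost in each of the 4 fits without an array, with an intensity trend (adjusted p = 0.106) and with quantile normalized gene values (-0.21, adjusted p = 0.0873). On Sp_EMA it held in 1 of 4 fits without an array (without H2O2 array 1), and quantile normalization gave -0.21 (adjusted p = 0.236). The kinase gene ppk24, which overlaps spn7 on the same strand by 108 bases outside its coding sequence, changed by -0.06 on Sp_TMA and -0.17 on Sp_EMA (limma, adjusted p = 0.582 and 0.212), and its part in the spn7 values was not tested.

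spn5, whose coding sequence has no annotated gene opposite it, had 5.58 and 5.48 in H2O2, against 5.69 and 5.63 in control cells on Sp_TMA. Both H2O2 arrays were lower, with a change of -0.13 (-0.33 to 0.06, adjusted p = 0.195 from limma). On Sp_EMA it had 5.87 and 5.90 in H2O2, against 6.12 and 6.16 in control cells. The groups were apart there, with a mean of 5.88 ± 0.02 in H2O2 and 6.14 ± 0.03 in control cells (SD, n = 2 each) and -0.25 between them, with a standard error of 0.05 (limma, adjusted p = 0.00914). The call on Sp_EMA held without either control array and was lost without either H2O2 array, where the adjusted p reached 0.0668. With quantile normalized gene values it was -0.16 (adjusted p = 0.0394).

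spn6 gave the dimmest signal of the family on both platforms. It had 5.06 and 5.21 in H2O2 and 5.29 and 5.17 in control cells on Sp_TMA, and 5.52 and 5.59 in H2O2 and 5.55 and 5.52 in control cells on Sp_EMA. The groups overlapped on both, and the cultures went opposite ways, with -0.23 in culture 1 and 0.04 in culture 2 on Sp_TMA and -0.02 and 0.07 on Sp_EMA. In limma its change was -0.10 with an interval of -0.32 to 0.13 on Sp_TMA (adjusted p = 0.410; -0.17 to -0.02 without an array), and 0.03 with an interval of -0.11 to 0.16 on Sp_EMA (adjusted p = 0.702).

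Set side by side, the vegetative septins had a higher median change than the sporulation septins on both platforms. On Sp_TMA the median change was 0.07 for spn1 to spn4 and -0.13 for spn5 to spn7, with -0.05 for all genes. On Sp_EMA it was -0.002 for spn1 to spn4 and -0.25 for spn5 to spn7, with -0.07 for all genes. The difference between the medians (vegetative minus sporulation) was 0.30 in culture 1 and 0.17 in culture 2 on Sp_TMA, and 0.28 and 0.22 on Sp_EMA. With the deposited values of all Sp_TMA arrays, each of spn1 to spn4 lay above each of spn5 to spn7. This order was lost with quantile normalized gene values, where spn2 (-0.17) lay below spn5 (-0.14) and spn6 (-0.13). It was also lost without control array 1, where spn2 (-0.0479) lay below spn6 (-0.0328). In culture 2 alone on Sp_TMA, spn6 (0.0409) lay above spn1 (-0.0098), spn2 (-0.0534) and spn4 (0.0371). On Sp_EMA spn6 (0.03) lay above spn1, spn2 and spn4. Of the vegetative septins 1 of 4 rose and none fell on each platform, and of the sporulation septins 1 of 3 fell on Sp_TMA (0 of 3 with the replicate block) and 2 of 3 on Sp_EMA. On Sp_TMA 25.2% of all genes were called higher and 31.3% lower, with 22.7% and 36.2% on Sp_EMA, so that counts this small are not a result about the classes. The groups hold 4 and 3 genes, so the difference is given as a description, with no test.

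The platforms gave the same direction for 6 of 7 septins (spn6 being the exception), although the sign of spn1 and spn2 on Sp_TMA and of spn4 on Sp_EMA turned when an array was left out. Both platforms read the same RNA, so a shared direction is not a biological replication. The share of all genes with a shared direction was not counted, so the number is not a result about the septins. Subtracting the Sp_EMA change from the Sp_TMA change gave values from -0.12 for spn6 to 0.14 for spn7. A test of this difference (limma on the 8 arrays, interaction of treatment and platform) called 1.94% of all genes and none of the septins, with unadjusted p from 0.210 for spn2 to 0.812 for spn1 and adjusted p from 0.472 to 0.906. That fit treats the arrays as independent, although both platforms read the same RNA. With the difference taken within each culture, adjusted p from limma ran from 0.392 for spn7 to 0.918 for spn1. For spn5, which passed the threshold on Sp_EMA only, the difference was 0.12 (95% interval -0.09 to 0.33), so its change is not shown to differ between the platforms.

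Profiles most like those of the septins belonged to genes other than septins. Likeness was the root mean square difference over the 8 arrays after each gene was centred within each platform. The nearest gene was SPAC4C5.01, a pseudouridine phosphatase (Pud1), for spn1 (0.0144), cti6, of a histone deacetylase complex, for spn2 (0.0158), SPCC1919.03c, of the AMP-activated kinase (Amk2), for spn3 (0.0204) and SPAC23H3.03c (Npr2) for spn4 (0.0282). For the sporulation septins it was arh1, of mitochondrial iron-sulfur cluster assembly, for spn5 (0.0276), SPAPB1A11.04c, a transcription factor, for spn6 (0.0280) and lac1, a ceramide synthase, for spn7 (0.0361). Next came mug116 and SPCC1795.05c (uridylate kinase) for spn1, the phosphatase ppa1 and the proton pump subunit vma11 for spn2, tim21 and usp109 for spn3, get3 and the proton pump subunit vma13 for spn4, SPBC115.03 and SPBC17A3.08 for spn5, SPBPB8B6.02c and SPAC16A10.03c for spn6, and SPAC977.12 (asparaginase) and SPAC22E12.02 for spn7. Another septin was never among these 3. Septins are so few among the 4853 other genes that this absence is not a result about the family, and the ranks have no test. The nearest other septin ranked behind 180 of 4853 genes for spn6 (spn1 being that septin), behind 190 for spn2 (spn1), 236 for spn7 (spn5), 318 for spn5 (spn2), 325 for spn4 (spn1), 347 for spn1 (spn2) and 593 for spn3 (spn4).

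Genes that act with the septins were read against the same shares of all genes. Of 5 partners of the ring (mid2, gef3 and the GTPase genes rho3 and rho4 with the regulator rga4), Sp_TMA called 3 lower and none higher, with a median of -0.46 over the 5, and Sp_EMA called 3 lower and 1 higher, with a median of -0.29. With 56.5% of all genes called on Sp_TMA and 59.0% on Sp_EMA, the number called is not a result about so short a list. gef3, a guanine nucleotide exchange factor that binds the septins, had 7.72 and 7.93 in H2O2, against 8.96 and 8.89 in control cells on Sp_TMA. Its H2O2 arrays were lower on both platforms, with changes of -1.10 on Sp_TMA and -0.94 on Sp_EMA (limma, adjusted p = 2.4e-04 and 7.4e-04). rho4, a GTPase of septum degradation, changed by -0.52 and -0.76 (adjusted p = 0.0309 and 0.00611 from limma). mid2, the anillin that anchors the ring, changed by -0.15 on both platforms and passed the threshold on neither (adjusted p = 0.141 and 0.0669 from limma).

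Most cell separation genes fell, and several of them by more than any septin. Of 9 such genes, each platform called 7 lower and 1 higher and left 1 uncalled, with a median of -0.68 on Sp_TMA and -0.52 on Sp_EMA, against -0.05 and -0.07 for all genes. Of all genes, 31.3% were called lower and 25.2% higher on Sp_TMA, and 36.2% lower and 22.7% higher on Sp_EMA. The septum glucanases that the septin ring helps to position were among them. agn1, an alpha-glucanase, had 8.91 and 9.07 in H2O2, against 11.18 and 11.24 in control cells on Sp_TMA. Its change there was -2.22 (limma, adjusted p = 1.3e-05), with -1.95 on Sp_EMA (adjusted p = 4.5e-05). eng1, a beta-glucanase, had 11.08 and 11.31 in H2O2, against 13.08 and 12.97 in control cells on Sp_TMA. Its change there was -1.83 (limma, adjusted p = 4.4e-05), with -2.55 on Sp_EMA (adjusted p = 3.3e-05). The member that rose was sep1, a forkhead transcription factor, by 0.60 and 0.70, and the member that did not pass was mid2. Fewer cells in the act of separating and less of these RNAs per cell cannot be told apart.

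The exocyst, the tether of secretory vesicles that septins help to place at the division site, had calls in both directions. Of 6 measured genes among 9 listed, with the exocyst regulator rho3 among them, Sp_TMA called 1 higher and 3 lower and Sp_EMA called 3 higher and 2 lower, with medians of -0.05 and 0.11. The share of all genes called in either direction was 56.5% on Sp_TMA and 59.0% on Sp_EMA. The changes of largest size on Sp_TMA were those of sec15 (-0.46, adjusted p = 0.00272 from limma) and exo70 (-0.42, adjusted p = 0.0179), which on Sp_EMA were -0.31 and -0.23.

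Genes listed for the forespore membrane and sporulation, in which Spn5, Spn6 and Spn7 take part, had calls in both directions. Of 17 measured genes among 20 listed, Sp_TMA called 5 higher and 6 lower and Sp_EMA called 1 higher and 4 lower, with medians of 0.01 and 0.05, where 56.5% and 59.0% of all genes were called. Signals of 12 of the 17 on Sp_TMA and 11 on Sp_EMA lay below the 25th percentile of all genes, as did those of spn5, spn6 and spn7. The mean value of the list was 7.98 and 8.06 in H2O2 and 8.03 and 8.06 in control cells on Sp_TMA, and 8.29 and 8.32 in H2O2 and 8.27 and 8.29 in control cells on Sp_EMA. mei4, the factor that the synonyms of spn5 and spn7 refer to, had 9.48 and 9.66 in H2O2, against 8.60 and 8.35 in control cells on Sp_TMA, and 7.96 and 7.97 in H2O2, against 6.39 and 6.54 in control cells on Sp_EMA. It rose by 1.09 on Sp_TMA and 1.502 on Sp_EMA (adjusted p = 4.3e-04 and 1.1e-04 from limma). Its part in the spn5 and spn7 values was not tested. spo5, an RNA-binding protein of meiosis, changed by -1.07 and -0.37 (adjusted p = 2.8e-04 and 0.00242 from limma).

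**Figure D4:**
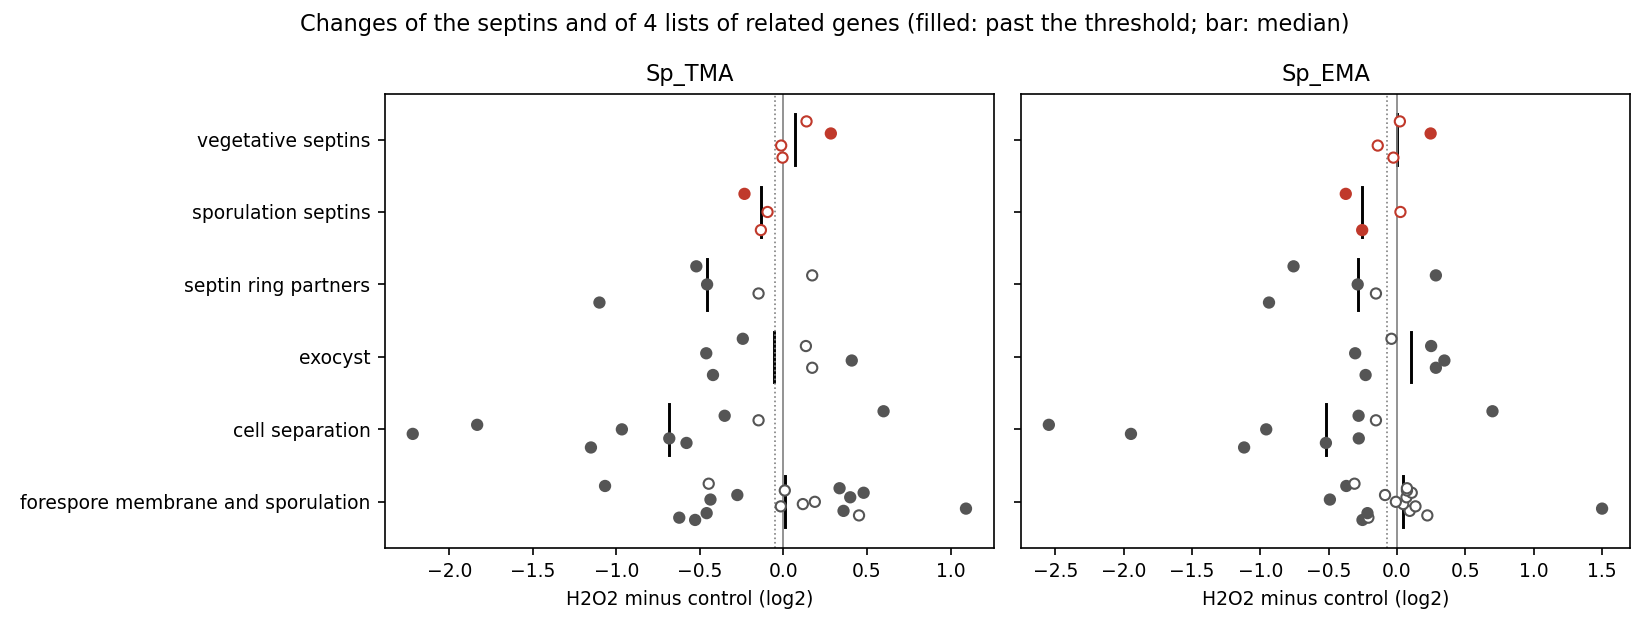
Changes (H2O2 minus control, log2, x axis) of the vegetative and sporulation septins (red) and of 4 lists of related genes (grey) on Sp_TMA (left) and Sp_EMA (right), with a point per gene, filled where past the threshold, a black bar at each median and a dotted line at the median of all genes. Septins lie between -0.37 and 0.28, while cell separation genes reach -2.22 on Sp_TMA and -2.55 on Sp_EMA.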

How the data were processed

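RNA of 2 cultures, each sampled before and 30 minutes after 0.5 mM H2O2, was measured on 8 arrays. Deposited were log2 signals, 1 per gene and array, that the authors computed by RMA, which corrects background, equalizes the distributions of arrays and summarizes the probes of a gene. Probes had been kept if they matched a single genome position inside an exon or ORF. Software version and genome build are not given in the sources used here. Both tables hold the same 4854 genes, and 4845 of them were matched by systematic name to the RefSeq annotation of ASM294v3, from which positions, products and sequences were taken.

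For each platform, H2O2 was set against control by limma 3.58.1 (R 4.3.3), with moderated variances, no culture term, two-sided p-values adjusted by Benjamini-Hochberg over all genes and 0.05 as the threshold. Alternatives were an intensity trend, the culture block, median centring, quantile normalization of the gene values, removal of the dimmest 25% of genes and leaving out each array. With 2 arrays against 2, an exact permutation test cannot go below p = 0.333. The number of arrays limits the precision. Without a culture term, 2 residual degrees of freedom per gene were moderated with 4.22 from the other genes on Sp_TMA and 3.03 on Sp_EMA. With the culture block, limma on Sp_TMA gave agn1 an adjusted p of 3.7e-68. So small a value from 4 arrays rests almost wholly on a variance shared over genes. The p-values of that fit, spn7 included, thus say little about each gene's own spread. Same-numbered arrays come from the same culture by the treatment protocol, which makes the culture a replicate block. Across genes, the gap between cultures in H2O2 correlated with that in control cells at r = -0.0585 on Sp_TMA and 0.253 on Sp_EMA.

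The septins and the 4 gene lists were chosen with earlier results of these data known. The text names all 7 septins, at most 2 called genes per list (ranked by absolute change on Sp_TMA) and the 3 genes nearest in profile to each septin. The lists share rho3 and mid2. A gene first listed under cell separation is not reported here and was left out of the counts and medians of that list. Genes overlapping a septin, mid2 and sep1 were named after their values were seen. Figures were drawn with matplotlib 3.10.9 in Python 3.11.15.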

Additional observations from a re-analysis of the deposited data

How the results depend on the processing

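Changes of the septins are small and rest on 2 arrays a group, and spn5, spn6 and spn7 are dim, so that none of these 3 was left on either platform without the dimmest 25% of genes. On Sp_TMA the change of spn7, -0.23, missed the threshold with the intensity trend and with the replicate block (adjusted p = 0.106 and 0.0975 from limma) and was -0.21 after quantile normalization, so that 0 sporulation septins were lower in each of these. Quantile normalization also gave 0.17 for spn3 on Sp_TMA, with 0 vegetative septins higher, and on Sp_EMA -0.21 for spn7, 1 sporulation septin lower (spn5) and a median of -0.16 for the sporulation septins. Over the lists, the block moved the exocyst calls on Sp_TMA to 1 higher and 2 lower, and the sporulation genes to 6 higher and 7 lower on Sp_TMA and to 2 higher and 5 lower on Sp_EMA (spo6 and isp3 added on both). The block changed no other call of a septin or list. The cause was not tested.

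Leaving out 1 array at a time on Sp_TMA, the change ran from -0.0157 to 0.00495 for spn1, -0.0479 to 0.0208 for spn2, 0.20 to 0.36 for spn3 (past the threshold without control array 2), 0.09 to 0.19 for spn4, -0.18 to -0.09 for spn5, -0.17 to -0.02 for spn6 and -0.27 to -0.19 for spn7 (never past it), with 0 to 1 vegetative septins higher, 0 to 0 sporulation septins lower and medians from 0.04 to 0.10 for the vegetative and -0.18 to -0.11 for the sporulation septins. On Sp_EMA it ran from -0.05 to -0.0024 for spn1, -0.20 to -0.08 for spn2, 0.24 to 0.25 for spn3 and -0.28 to -0.23 for spn5 (both lost without either H2O2 array), -0.0452 to 0.0887 for spn4, -0.00875 to 0.0606 for spn6 and -0.50 to -0.25 for spn7 (past the threshold without H2O2 array 1), with 0 to 1 vegetative septins higher, 0 to 1 sporulation septins lower and medians from -0.05 to 0.04 for the vegetative and -0.28 to -0.23 for the sporulation septins. Over all genes, 885 to 1066 rose and 1145 to 1324 fell on Sp_TMA, and 810 to 1062 rose and 1300 to 1708 fell on Sp_EMA. Without a culture, Sp_TMA minus Sp_EMA ran from -0.0206 to 0.0611 for spn1, 0.05 to 0.20 for spn2, -0.0681 to 0.14 for spn3, 0.05 to 0.18 for spn4, 0.11 to 0.13 for spn5, -0.21 to -0.03 for spn6 and 0.08 to 0.20 for spn7.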
